A study of Mus musculus with 8 samples.

Results

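The genes described are 75 of the 16599 genes in the expression tables, those whose symbol begins with Snrp, Sf3a, Sf3b, Srsf, Sfrs, Lsm and a digit, Hnrnp or Prpf. Most of them encode proteins of the spliceosome, SR proteins or hnRNPs, and they were chosen by name and not by level. The name rule also takes in genes outside these groups, such as Lsm11 of the U7 snRNP. The data come from Patch-seq, in which a neuron is recorded with a patch electrode and its RNA is then sequenced. Single neurons of the ventrolateral part of the ventromedial hypothalamic nucleus (vlVMH) were collected from female ERα-ZsGreen mice, in which the ERα promoter drives the green reporter ZsGreen. GE (glucose-excited) neurons 1, 4, 6 and 8 hyperpolarized and fired less at 1 mM than at 5 mM glucose. GI (glucose-inhibited) neurons 2, 3, 5 and 7 depolarized and fired more at 1 mM. All neurons came from a pair of mice that the labels do not tie to single neurons, so each class was treated as 1 sample and no test between classes was made. The line was kept on a C57BL6/J background, and an age range is given for the mice of the study as a whole but not for the donors of these neurons.

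The spliceosome removes introns from nuclear pre-mRNA. It is built from small nuclear ribonucleoproteins (snRNPs), each a small RNA held in a ring of Sm or Lsm proteins with proteins of its own. SR proteins and hnRNPs bind the pre-mRNA and set which exons are kept, and neurons are known for extensive alternative splicing.

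Levels are in FPKM, the fragments of a gene scaled to its length and to the mapped fragments of the library. It is a level per length, so comparisons between genes depend on the lengths used, which are not stated. In GE neuron 1, Snrpg had 910.7 fragments at 1239 FPKM and Lsm6 had 919.7 fragments at 89.0 FPKM. The 7 neurons used had 6144126 to 14900568 reads, and GI neuron 3, with 126914 reads, was left out of class means. GE neuron 1, which had the most reads, had 48.2% of them mapped, against 74.7% to 77.3% in the others used. The label was checked against marker genes. The neuronal gene Snap25 lay between 251 and 384 FPKM in the 7 neurons, whereas Esr1, which encodes ERα, was at most 1.0 FPKM and not listed in GE neurons 6 and 8 and GI neuron 5. RNA of other cells was also present, with Mbp of oligodendrocytes between 186 and 667 FPKM.

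All 75 members were listed in each of the 4 GE neurons, and 74 or 75 in each of the 3 GI neurons. The only member without a value in some of the 7 neurons was Sf3a2, a subunit of the U2 snRNP, which was not listed in GI neurons 2 and 5. The members' FPKM values summed to 8563, 6212, 6700 and 7200 in GE neurons 1, 4, 6 and 8, and to 8606, 6770 and 6361 in GI neurons 2, 5 and 7. The classes overlapped, and the sum was high in GE neuron 1 and GI neuron 2, which also had the highest FPKM sums over all genes. The members held 0.594% to 0.667% of the FPKM sum in GE neurons and 0.603% to 0.631% in GI neurons. The order of members by level was much alike in all neurons, with Spearman's rho across the 75 genes of 0.891 to 0.922 within GE, 0.888 to 0.932 within GI and 0.859 to 0.944 between classes. These values describe genes, which are not independent, and all pairs share the same gene lengths.

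**Figure D1:**
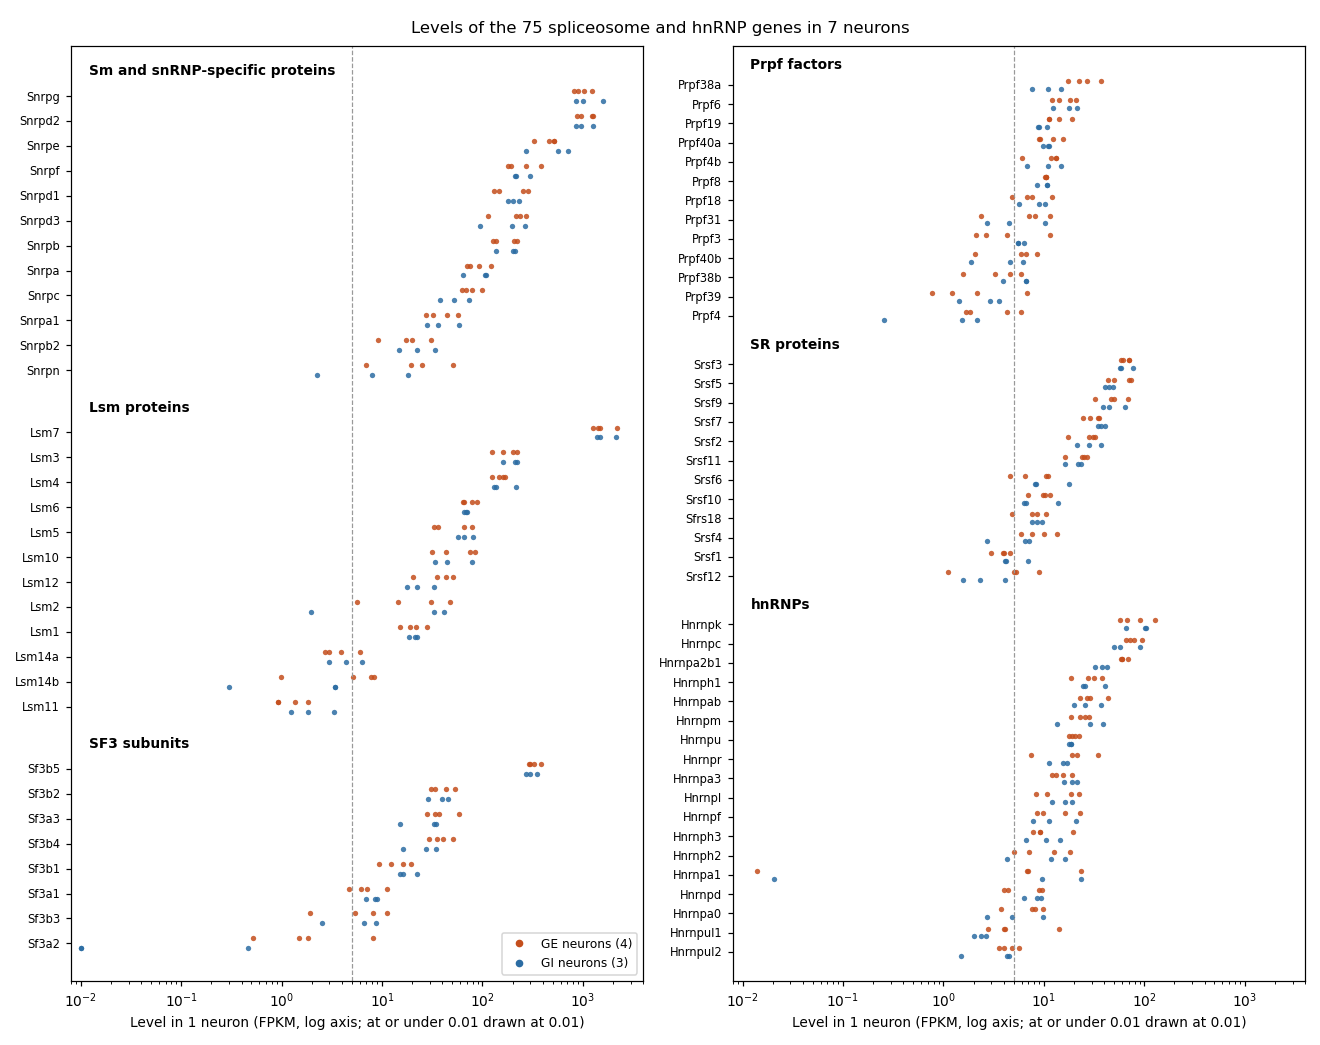
Level of each of the 75 members in each neuron (FPKM, log axis), grouped by role, with GE neurons in orange above GI neurons in blue. The dashed line is the filter of 5 FPKM. Values span from Lsm7, at 1258 FPKM or more in every neuron, to Sf3a2, not listed in 2 GI neurons and drawn there at 0.01.

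Sm proteins, which form the ring around most spliceosomal RNAs, included 7 of the 10 members of highest level. Snrpg had 1239, 894, 1033 and 821 FPKM in GE neurons 1, 4, 6 and 8, against 1599, 993 and 850 FPKM in GI neurons 2, 5 and 7. Snrpd2 had 1235, 967, 871 and 1269 FPKM in GE neurons, against 1253, 956 and 850 FPKM in GI neurons. Both overlapped between classes, and GI neuron 2 had the highest Snrpg level. Class means of the other ring proteins were 454 in GE and 517 in GI for Snrpe, 258 and 240 for Snrpf, 204 in both for Snrpd1, 209 and 185 for Snrpd3, and 172 and 183 for Snrpb, GE before GI. Within a neuron the highest ring protein exceeded the lowest by 7.13 to 11.0 times in GE neurons and by 4.23 to 16.9 times in GI neurons. The mRNAs of proteins that meet in 1 ring were thus not listed at equal levels. These ratios also depend on the lengths used to scale each gene. Of the proteins particular to single snRNPs, Snrpa (U1) averaged 89.8 FPKM in GE and 93.4 in GI, Snrpc (U1) 77.6 and 54.9, Snrpa1 (U2) 40.0 and 41.1, and Snrpb2 (U2) 19.3 and 23.7.

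Snrpn, the ring protein that can replace Snrpb and is known for its abundance in brain, had the lowest level of the Sm group. It had 24.96, 19.4, 51.0 and 6.92 FPKM in GE neurons 1, 4, 6 and 8, against 7.89, 2.24 and 18.0 FPKM in GI neurons 2, 5 and 7. The classes overlapped, with GE neuron 8 below GI neurons 2 and 7, and GE exceeded GI by a log2 ratio of 1.36. Without GE neuron 6 it was 0.80 and without GI neuron 5 it was 0.93, while without GE neuron 8 it was 1.66 and without GI neuron 7 it was 2.13. The gene model of Snurf, which is made from the same transcript as Snrpn, lies wholly inside that of Snrpn in the tables. Snurf was listed at 1167, 675, 845 and 972 FPKM in GE neurons, against 1241, 777 and 940 FPKM in GI neurons, far above Snrpn in every neuron. The level of Snrpn therefore depends on how reads were divided between the 2 models before deposit. With both added, the log2 ratio was -0.082, a change of sign. The share of Snrpn in Snrpn plus Snrpb was 10.9%, 12.5%, 28.4% and 3.04% in GE neurons, against 3.62%, 1.61% and 8.24% in GI neurons, with means of 13.7% and 4.49%. With Snurf added to Snrpn the share was 81.6% to 87.4% in GE neurons and 82.7% to 85.6% in GI neurons, and the means differed by 0.067 percentage points. Snrpn lies on chromosome 7 from 59982495 to 60140219 (minus strand, GRCm38).

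**Figure D2:**
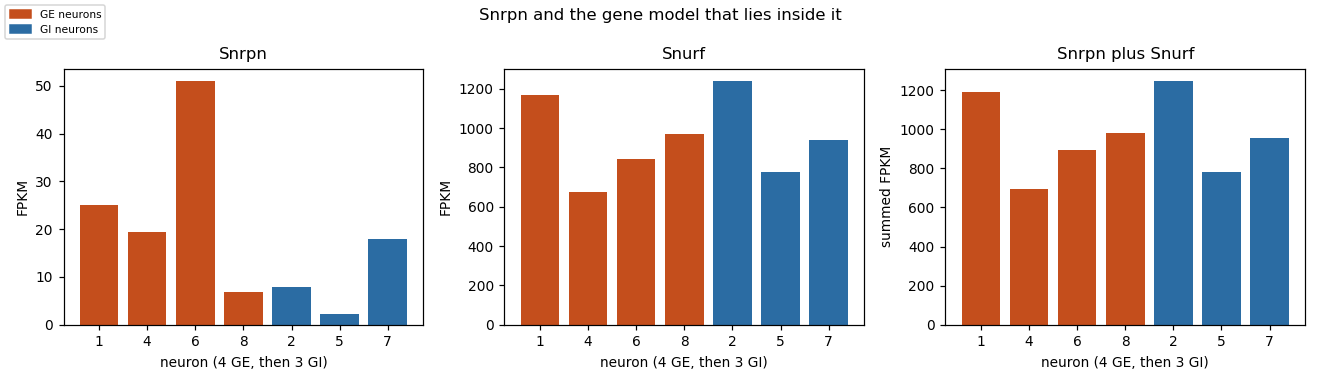
FPKM of Snrpn, of Snurf and of their sum in the 4 GE neurons (orange, left) and the 3 GI neurons (blue, right), 1 bar per neuron and no error bars. Snrpn reaches 51.0 FPKM in GE neuron 6, whereas the sum lies between 695 and 1249 FPKM and overlaps between classes.

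Some Lsm proteins form the ring of U6 snRNA, and a related ring with Lsm1 acts in mRNA decay. Lsm7 was the highest of all members in each of the 7 neurons, with 2175, 1258, 1407 and 1486 FPKM in GE neurons 1, 4, 6 and 8, against 2132, 1482 and 1392 FPKM in GI neurons 2, 5 and 7. GE neuron 1 and GI neuron 2 were the high ones, as for the FPKM sum, and the classes overlapped. Lsm3, of the same ring, averaged 177 FPKM in GE and 197 in GI. Lsm5, also of the U6 ring, averaged 53.6 FPKM in GE and 67.9 in GI with a log2 ratio of -0.33. Lsm12 had 35.3, 20.5, 43.1 and 51.5 FPKM in GE neurons, against 17.7, 22.5 and 32.7 FPKM in GI neurons. GE neuron 4 lay below GI neurons 5 and 7, so the classes overlapped, and the log2 ratio was 0.61. Lsm11, of the U7 snRNP that acts on histone mRNAs, was the lowest, with means of 1.26 FPKM in GE and 2.13 FPKM in GI.

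SF3a and SF3b are parts of the U2 snRNP, which binds the branch point. Sf3b5, a small SF3b subunit, had 381, 293, 295 and 326 FPKM in GE neurons 1, 4, 6 and 8, against 354, 299 and 271 FPKM in GI neurons 2, 5 and 7. Sf3b1, the large subunit that holds the branch point helix, averaged 14.4 FPKM in GE and 18.0 FPKM in GI, a log2 ratio of -0.31 that was -0.13 without GI neuron 7. Sf3a2 had the lowest level of the group and was under the filter. It had 1.48, 8.22, 0.52 and 1.83 FPKM in GE neurons, against 0.47 FPKM in GI neuron 7 and no value in GI neurons 2 and 5. Every GE neuron was above every GI neuron, but the deposited intervals correspond to 6.6, 25, 1.0 and 4.0 fragments in GE neurons and to 1.0 fragment in GI neuron 7. The log2 ratio of 1.80 was 3.60 with a pseudocount of 0.1 and 0.64 with a pseudocount of 5.

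Of all members, 64 had a level of at least 5 FPKM, taken as the mean of the class means, and were counted. The log2 ratio (pseudocount 1) was above 0 in 35 of the 64 (54.7%), while 51.9% of all 6417 genes counted were higher in GE. The median log2 ratio of the members was 0.02, and that of all genes counted was 0.02. At least 2-fold higher in GE were 2 members, Snrpn and Prpf38a, where 2.46% of all genes passed. At least 2-fold higher in GI were 0 members, where 2.17% of all genes passed. Every GE neuron was above every GI neuron in 3 members, Prpf38a, Prpf19 and Hnrnpa2b1, where the same was so in 2.24% of all genes. Every GI neuron was above every GE neuron in 0 members, where the same was so in 1.84% of all genes. Log2 ratios within 0.5 of 0 were found in 57 members (89.1%) and in 78.6% of all genes counted. The 2-fold count in GE was 1 without GE neuron 6, 1 without GE neuron 8 and 0 without GI neuron 5. The count of members with every GE neuron above was 7 without GE neuron 4 and 5 without GE neuron 6 or GI neuron 2. Leaving out a neuron cannot make separate classes overlap, so the 3 named members had to remain among them. The matching share of all genes is not given.

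**Figure D3:**
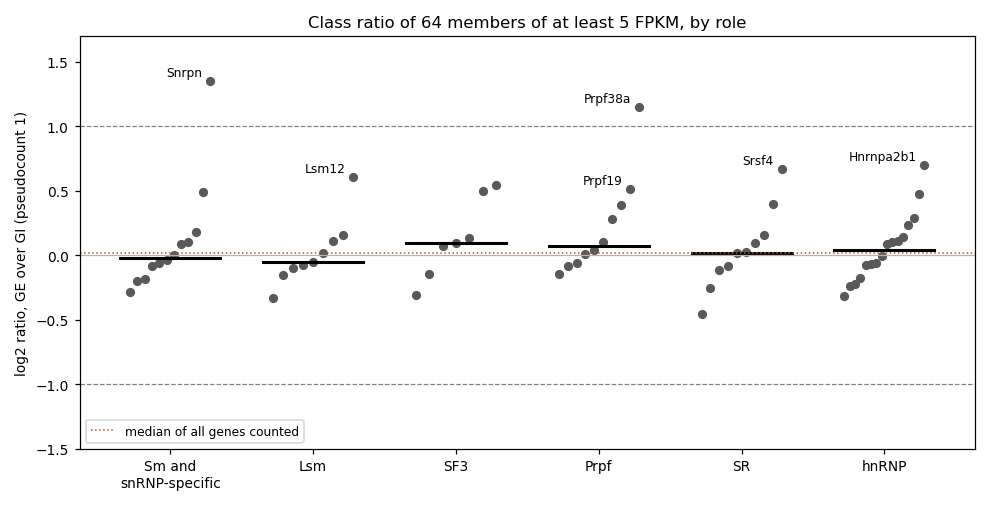
Log2 ratio of GE over GI (pseudocount 1) for the 64 members of at least 5 FPKM, by role. Each point is a gene, bars are medians of a role, dashed lines mark 2-fold and the dotted line is the median of all genes counted. Most points lie within 0.5 of 0, and Snrpn (1.36) and Prpf38a (1.15) lie above the upper line.

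Role by role, the median log2 ratio of the counted members was -0.02 for Sm and snRNP-specific proteins (5 of 12 higher in GE), -0.05 for Lsm proteins (4 of 9), 0.09 for SF3 subunits (5 of 7), 0.07 for Prpf factors (7 of 10), 0.02 for SR proteins (6 of 10) and 0.04 for hnRNPs (8 of 16). Of the role sums, only that of the Prpf factors did not overlap between classes. It was 129, 128, 117 and 127 FPKM in GE neurons 1, 4, 6 and 8, against 107, 93.5 and 110 FPKM in GI neurons 2, 5 and 7. Without Prpf38a the sum was 90.2 to 111 FPKM in GE neurons and 85.9 to 98.9 FPKM in GI neurons, and the classes overlapped.

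Prpf38a, a factor of the precatalytic B complex, had 22.4, 17.6, 27.2 and 36.7 FPKM in GE neurons 1, 4, 6 and 8, against 14.9, 7.59 and 10.96 FPKM in GI neurons 2, 5 and 7. All GE neurons were above all GI neurons, with the narrowest gap between GE neuron 4 and GI neuron 2. Class means were 26.0 and 11.2 FPKM, GE before GI, and the log2 ratio was 1.15. The deposited intervals of GE neuron 4 (12.5 to 22.7 FPKM) and GI neuron 2 (9.63 to 20.2 FPKM) overlapped, and they correspond to 47.5 and 31.9 fragments. The log2 ratio was 0.94 without GE neuron 8 and 0.95 without GI neuron 5. GI neuron 3, with few reads, was listed at 45.8 FPKM, and with it in the GI class the log2 ratio was 0.37 and the classes overlapped. Prpf38b, its paralog, was under the filter and averaged 3.85 FPKM in GE and 5.78 in GI. Prpf38a lies on chromosome 4 from 108563172 to 108579336 (minus strand, GRCm38).

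Prpf19, the ubiquitin ligase of the complex that activates the spliceosome, had 11.4, 19.3, 14.3 and 11.2 FPKM in GE neurons 1, 4, 6 and 8, against 10.8, 8.80 and 8.88 FPKM in GI neurons 2, 5 and 7. The classes did not overlap, but GE neuron 8 lay only just above GI neuron 2 and their intervals overlapped widely. The log2 ratio was 0.52, and it was 0.34 without GE neuron 4. With neurons scaled by the median of ratios, the classes overlapped. Prpf8, a protein at the catalytic centre, was nearly level, with 10.4, 10.2, 10.5 and 10.4 FPKM in GE neurons and 10.8, 10.7 and 8.61 FPKM in GI neurons. Its coefficient of variation (CV) over the 7 neurons was 7.30%, the lowest of the members counted. Prpf8 was chosen for mention after its values were seen. Prpf4, of the tri-snRNP, was the lowest of the group, with means of 3.42 FPKM in GE and 1.31 FPKM in GI.

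**Figure D4:**
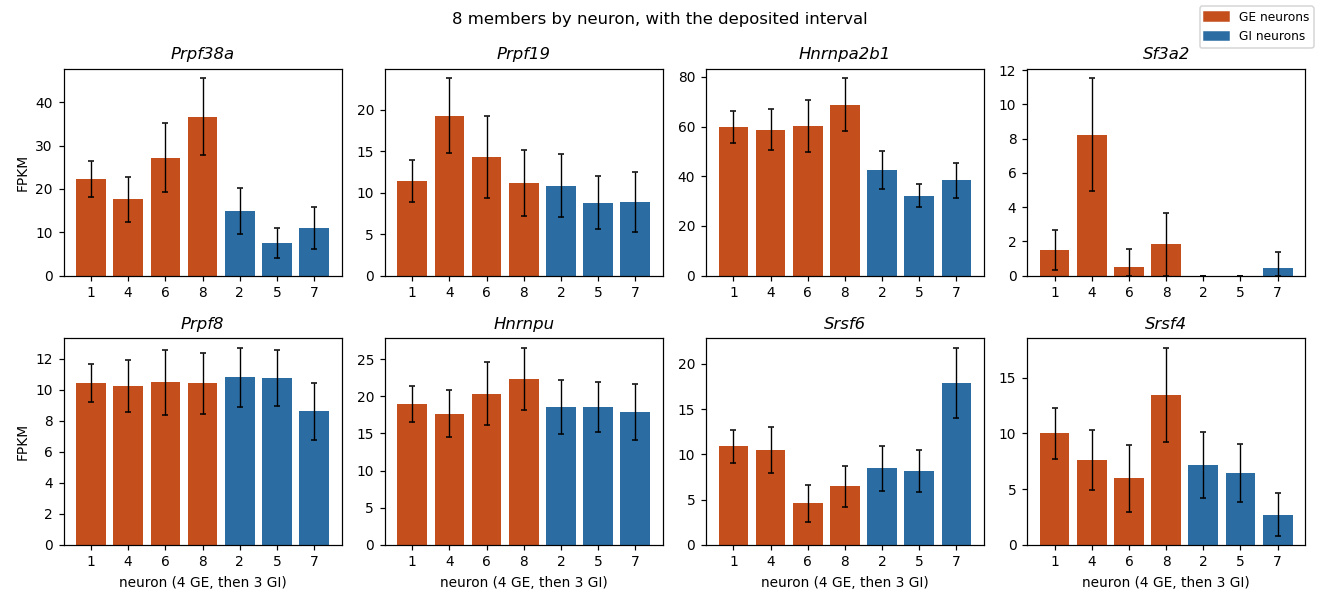
FPKM of 8 members by neuron, with 4 GE neurons (orange, left) and 3 GI neurons (blue, right) in each panel. Bars are single neurons and whiskers are the deposited interval. Prpf38a, Prpf19, Hnrnpa2b1 and Sf3a2 do not overlap between classes, while Prpf8, Hnrnpu, Srsf6 and Srsf4 do.

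SR proteins bind exons and recruit the splicing machinery. Srsf3, the most abundant of them here, averaged 65.3 FPKM in GE and 64.2 in GI. Srsf4 had 10.003, 7.62, 5.97 and 13.5 FPKM in GE neurons 1, 4, 6 and 8, against 7.18, 6.48 and 2.70 FPKM in GI neurons 2, 5 and 7, a log2 ratio of 0.67 that was 0.39 without GI neuron 7. Srsf6 had 10.9, 10.5, 4.59 and 6.46 FPKM in GE neurons, against 8.45, 8.17 and 17.9 FPKM in GI neurons. The classes overlapped for both, and for Srsf6 GI neuron 7 was the only GI neuron above the highest GE neuron. Its log2 ratio of -0.46, the lowest of the members counted, rests on that neuron, being -0.032 without GI neuron 7 and 0.0025 with the median of the neurons in place of the mean. Srsf12 was the lowest SR gene, with means of 5.10 FPKM in GE and 2.64 FPKM in GI.

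The hnRNPs coat nascent transcripts, and many of them repress exons. Hnrnpa2b1, which also acts in the sorting of RNA to processes of neural cells, had 59.8, 58.8, 60.2 and 68.8 FPKM in GE neurons 1, 4, 6 and 8, against 42.5, 32.2 and 38.3 FPKM in GI neurons 2, 5 and 7. The classes did not overlap. The lowest bound of the deposited intervals in GE neurons was 49.8 FPKM, in GE neuron 6, and the highest bound in GI neurons was 50.1 FPKM, in GI neuron 2, so those intervals just met. Its log2 ratio was 0.70, with 0.60 to 0.80 when each neuron was left out in turn, and the values correspond to 118 to 353 fragments. Hnrnpa2b1 and Prpf19 were at 0 in GI neuron 3, which listed 44 of the 75 members, and with it in the GI class their log2 ratios were 1.10 and 0.89. Hnrnpa2b1 lies on chromosome 6 from 51460932 to 51469894 (minus strand, GRCm38). Hnrnpk, by contrast, averaged 85.6 FPKM in GE and 90.3 in GI, and Hnrnpu, named after its values were seen, lay between 17.6 and 22.4 FPKM in all 7 neurons. Hnrnpul1 and Hnrnpul2 were under the filter, with Hnrnpul2 the lowest of the hnRNPs at means of 4.53 FPKM in GE and 3.44 FPKM in GI. Hnrnpul1, named after its values were seen, had 14.2, 4.10, 2.81 and 4.04 FPKM in GE neurons, against 2.38, 2.0006 and 2.65 FPKM in GI neurons, and only GE neuron 1 was well above the others.

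A pair of hnRNP genes shared their position with other gene models, so their levels are uncertain. Hnrnpa1, a repressor of exons, was listed at 0.014 FPKM in GE neuron 4 and 0.020 FPKM in GI neuron 2, and at 6.75 to 23.7 FPKM in the other neurons. With the models Gm10052 and Gm5643 inside it added, it was 20.6 to 38.5 FPKM in GE neurons and 23.8 to 27.1 FPKM in GI neurons. Hnrnpa3, its relative, averaged 15.0 FPKM in GE and 18.9 FPKM in GI, a log2 ratio of -0.31. With the model Gm6793 inside it added, the log2 ratio was 0.22.

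The deposited levels of the members ran with transcript length. The median length of the protein-coding transcripts of a gene in GENCODE vM21 was 958 bases over the 10 highest members and 2021 bases over the other 65. Spearman's rho between length and level was -0.59 across the 75 members and -0.42 across 5550 of all genes counted, a description over genes that share the same libraries. Sf3b5, at 3841 bases in this annotation, was the longest of the 10. The lengths behind the deposited levels are not stated and may differ from these. In GE neuron 1, Sf3b5 had 784.6 fragments at 381 FPKM and Lsm4, of 605.5 bases, had 481.6 at 169 FPKM. Prpf8 had 290.5 fragments at 10.4 FPKM there. Sf3b5 is therefore not a clear exception. Lsm7 had a length of 799 bases and Prpf8 of 7249 bases.

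**Figure D5:**
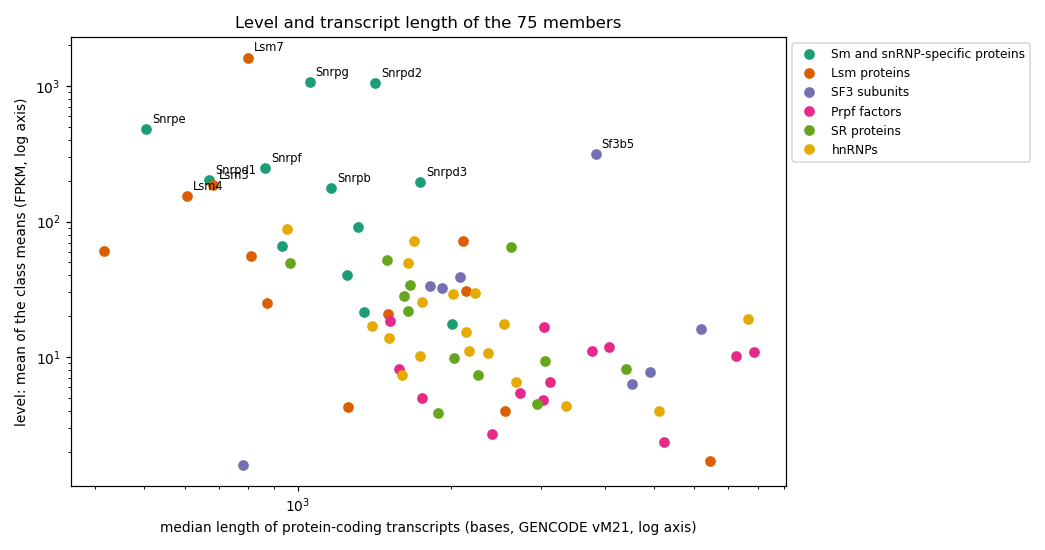
Level (mean of the class means, FPKM) against the median length of protein-coding transcripts (bases) for the 75 members, both axes on a log scale, coloured by role. The highest levels belong to short genes such as Lsm7 and Snrpe. Sf3b5 is drawn apart at 3841 bases, a length that may differ from the one behind its level.

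The members varied between neurons with a median CV of 29.0% over the 64 counted, beside 35.4% over all genes counted. The CV was under 25% in 22 members and over 50% in 8. Hnrnpa1, at 98.4%, and Snrpn, at 87.9%, had the highest values, and both are genes with another model at the same position. The median CV was 23.1% for Lsm proteins and 32.2% for hnRNPs. Among gene groups of like size, it was 42.9% for DEAD and DEAH box helicases, 20.5% for proteasome subunits and 24.1% for cytosolic ribosomal proteins, groups that differ from the members in level. Of the members counted, 21 were highest in GE neuron 8 and 15 in GE neuron 1, and 3 to 8 in each of the other neurons. The same count over all genes is not given. Relative to the mean over the neurons, the median level in GE neuron 8 was 1.08 for members and 1.11 for all genes counted. In GE neuron 1 it was 1.10 for members and 0.956 for all genes counted.

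Other splicing genes from 8 lists, not covered by the name rule, gave 61 of 108 counted genes higher in GE, with a median log2 ratio of 0.07. At least 2-fold higher in GE were 1.85% of them and in GI 0.926%, beside 2.46% and 2.17% of all genes counted. Every GE neuron was above every GI neuron in 1.85% and every GI neuron above every GE neuron in 1.85%, beside 2.24% and 1.84% of all genes counted. The lists ran both ways beside the 51.9% of all genes higher in GE. Higher in GE were 9 of 11 genes for snRNP assembly, 8 of 10 SR-related proteins and kinases, 10 of 17 of the B and C complexes, 11 of 18 tissue splicing regulators, 8 of 13 other hnRNP-like proteins, 6 of 12 of the A complex, 4 of 10 of the exon junction complex and 5 of 17 other snRNP proteins. Smn1, which loads Sm proteins on snRNAs, had 12.5, 17.7, 10.4 and 12.4 FPKM in GE neurons 1, 4, 6 and 8, against 5.99, 1.02 and 11.3 FPKM in GI neurons 2, 5 and 7, and the classes overlapped. Clns1a, which holds Sm proteins before assembly, was lower in every GE neuron, at 32.6 to 41.6 FPKM, than in every GI neuron, at 43.1 to 46.4 FPKM. Both were named after their values were seen.

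Among the sums of marker genes, only those of neurons and red cells did not overlap between classes. The sum of 6 neuronal markers was 866 to 1029 FPKM in GE neurons and 732 to 822 FPKM in GI neurons. Of these markers, 5 of 5 counted were higher in GE, and 0 had every GE neuron above every GI neuron. The sum of the red cell markers, with 3 of 5 found, was 946 to 2240 FPKM in GE neurons and 2904 to 5048 FPKM in GI neurons, with 3 of 3 higher in GI. Hbb-b1 among them was listed at only 0.013 and 0.019 FPKM in GE neurons 4 and 8, where Hbb-b2 was listed at 758 and 614 FPKM. How reads were divided between these genes was not tested. The sums of oligodendrocyte, astrocyte and microglia markers overlapped between classes, with 6 of 7, 5 of 6 and 5 of 6 counted markers higher in GE. In the same order, 0, 1 and 0 markers had every GE neuron above every GI neuron, beside 2.24% of all genes counted. Peptide genes known from the neighbouring arcuate nucleus were high in all 7 neurons, with Sst at 5591 to 7449.6 FPKM in GE neurons and 5184 to 6999.6 FPKM in GI neurons, and Npy at 656 to 1078 FPKM in GE neurons and 697 to 2251 FPKM in GI neurons. The sum of these 6 markers was 9586 to 11974 FPKM in GE neurons and 9602 to 13925 FPKM in GI neurons, with 2 of 6 higher in GE. The part of other cells' RNA in the values of Prpf38a, Prpf19 and Hnrnpa2b1 was not tested.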

How the data were processed

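Gene levels are FPKM values that the authors deposited per neuron, with the bounds of an interval of unstated level. Genes at 0 are not listed and were taken as 0. No tool, annotation or build is named for these values in the sources read. The authors' quality table gives the reads and, as a fraction, the share mapped. Libraries were SMART-Seq v4 and Nextera. Positions and lengths are from GENCODE vM21 (GRCm38), not from the tables. Of the gene names, 110 with several rows and 24 turned into dates were left out.

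A class level is the mean over 4 GE or 3 GI neurons. The log2 ratio of GE over GI used a pseudocount of 1, and genes with a mean of the class means of at least 5 FPKM were counted. Neurons came from a pair of mice and were not tied to them, so neurons were not taken as replicates and no p-value was computed. The number of fragments was derived from the upper arm of each interval, taken as 2 SD of counting error, and cover that error only. The members and gene lists were chosen with earlier results of these data known. Genes named are the 10 highest members, the 5 largest ratios in each direction, members without overlap, Snrpn and Snrpb, and the lowest of each role. A few others stand for their role, or were chosen once values were known, which is then stated. Alternatives were the median, GI neuron 3 added, each neuron left out, pseudocounts of 0.1 and 5, other filters and 3 scalings. Sums with overlapping gene models and counts without such members were added after the data were seen. Python 3.11.15, numpy 2.4.6, pandas 2.3.3, scipy 1.17.1 and matplotlib 3.10.9 were used, tested on simulated data.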

Additional observations from a re-analysis of the deposited data

Results flagged for a closer look

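In 34 sets of the 4 GE neurons, 1 neuron stood far from the other 3 in 3 sets, and chance gives this in about 1 of 20 sets. Hnrnpa2b1 was highest in GE neuron 8 at 68.8 FPKM, but its deposited interval there (58.3 to 79.4 FPKM) overlapped those of the other 3. Sf3a2 was highest in GE neuron 4 at 8.22 FPKM, from 25 fragments. The sum of the Prpf factors was lowest in GE neuron 6 at 117 FPKM. GI neuron 3, which entered no class mean, listed 44 of the 75 members.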

How the results depend on the processing

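The counts and the median of the members, and the share of Snrpn, were recomputed under each alternative, except that the share does not use the pseudocount, filter or scaling. Leaving out each neuron in turn gave 30 to 41 members higher in GE and a median log2 ratio of -0.03 to 0.08. It gave 0 to 2 members at least 2-fold higher in GE and 0 to 1 in GI. The difference in Snrpn share was then 4.33 to 12.8 percentage points. Members with every GE neuron above numbered 4 to 7, and those with every GI neuron above 0 to 2. Counts of non-overlap can only hold or rise when a neuron is left out, except through the level filter. With GI neuron 3 added, 2 members were at least 2-fold higher in GI. With a pseudocount of 5, 1 member was at least 2-fold higher in GE. Without a level filter, 4 of 75 members were at least 2-fold higher in GE and 5 had every GE neuron above. The number of genes counted changes with the filter, and the matching shares of all genes are given for none of the alternatives. At 20 FPKM or more, 19 of 36 members were higher in GE, 0 at least 2-fold, and 1 had every GE neuron above. Scaling by the median of ratios gave 1 member with every GI neuron above, and 31 of 63 higher in GE. Without members that share a locus, an alternative chosen after seeing the data, 1 member was at least 2-fold higher in GE. With overlapping models added, also chosen after seeing the data, the log2 ratio of Snrpn was -0.082 and the difference in Snrpn share was 0.067 percentage points. The cause of these changes was not tested, other than that fewer or more genes were counted under the filters. No paired analysis was possible because the labels do not tie the GE and GI neurons to single mice. Depth limits single members, such as Sf3a2, which rests on at most 25 fragments in a neuron, and Lsm2, which goes down to 0.9 fragments.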
